A study of Caenorhabditis elegans with 2 samples.

Results

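The weaker binding sites of GFP-tagged T22C8.4 in Caenorhabditis elegans embryos numbered 1003, out of 55975 entries in the ranked list that the authors made from both replicates together. The sites were chosen by their deposited score, which had to lie between 540 and 829, just under the lowest score of 830 in the authors' main list of 2415 thresholded peaks. The score is computed by the authors from the irreproducible discovery rate (IDR), so these sites had a global IDR between 0.01 and 0.05. Of 1161 entries in that score range on the nuclear chromosomes, 158 were set aside because they overlapped a thresholded peak by at least 1 bp. Only 6 of these 158 touched a main peak, and the other 152 touched a peak of the conservative list alone, which is the thresholded list made by comparing the replicates.

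Chromatin immunoprecipitation and sequencing was performed with an anti-GFP antibody on whole mid-stage embryos of strain OP785, obtained by egg bleaching and given an age of 2 hours. OP785 carries the transgene wgIs785, in which T22C8.4 is fused to TY1, EGFP and 3xFLAG, and a wild-type unc-119(+) marker, in an unc-119(tm4063) background. The 2 biological replicates form 1 group, share this whole genotype and came from chromatin sonicated to 200-800 bp. No untagged strain or second condition was analysed here, the read depth behind a peak list is unknown, and signal from a few cells of the embryo cannot be told apart from weak signal in many.

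T22C8.4 is annotated as a protein with a C2H2-type zinc finger domain, a fold that in many transcription factors contacts short DNA words. IDR compares the ranks of peaks between a pair of rankings and gives each peak the chance that its rank does not repeat, so a cutoff divides a continuous ranking rather than separate classes of sites. Promoters hold the start sites of protein-coding genes, while tRNA genes carry their own promoter inside the transcribed sequence, including an element called the B box that the general factor TFIIIC binds. Many snoRNA genes and some tRNA genes of C. elegans lie inside introns of other genes.

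Stretches of 101 bases centred on the summits of 8 weaker sites are given here, so that the words counted in the results can be seen in place. They were chosen after the values were seen, from the named sites on chromosomes II to V and X whose window held no untranslated region, as the strongest sites with the word ATCGAT, the strongest with only ATTGAT or its reverse complement, and the strongest at tRNA genes with the B-box pattern GTTCNANNC on either strand. Capitals mark the word, and all are read 5′ to 3′ on the plus strand of ce11. The sites with ATCGAT lay at -90 bp from the 5' end of F54D5.7 (chrII:11547377-11547477), at -189 bp from that of the uracil DNA glycosylase gene ung-1 (chrIII:11974235-11974335) and at -89 bp from that of ifet-1 (negative positions are upstream of the 5' end), in the promoter it shares with the ribosomal protein gene rps-1 (chrIII:4475189-4475289).
F54D5.7: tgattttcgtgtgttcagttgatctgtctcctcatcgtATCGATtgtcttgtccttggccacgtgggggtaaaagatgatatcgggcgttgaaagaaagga
ung-1: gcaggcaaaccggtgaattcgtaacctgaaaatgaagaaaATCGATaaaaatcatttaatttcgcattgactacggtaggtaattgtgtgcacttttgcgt
rps-1 and ifet-1: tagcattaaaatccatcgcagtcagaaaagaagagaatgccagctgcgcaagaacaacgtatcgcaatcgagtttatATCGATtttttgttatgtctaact
The sites with only ATTGAT or ATCAAT lay at set-25, which encodes a histone H3 lysine methyltransferase (chrIII:13293094-13293194), at the histone gene his-47 (chrIV:11400241-11400341) and at the chemoreceptor gene srh-76 (chrV:5832957-5833057).
set-25: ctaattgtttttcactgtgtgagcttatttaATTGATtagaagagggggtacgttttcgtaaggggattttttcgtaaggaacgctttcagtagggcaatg
his-47: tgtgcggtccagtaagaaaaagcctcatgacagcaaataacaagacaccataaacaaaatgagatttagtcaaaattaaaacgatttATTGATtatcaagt
srh-76: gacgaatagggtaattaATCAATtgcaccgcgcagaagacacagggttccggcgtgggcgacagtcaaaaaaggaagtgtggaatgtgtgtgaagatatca
The sites at tRNA genes lay in introns of sur-7, within 150 bp of tRNA gene WBGene00022977 (chrX:16378096-16378196), and of the innexin gene unc-7, within 150 bp of tRNA gene WBGene00012350 (chrX:15146549-15146649).
tRNA in sur-7: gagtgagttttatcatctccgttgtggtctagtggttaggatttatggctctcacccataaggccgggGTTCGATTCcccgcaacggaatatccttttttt
tRNA in unc-7: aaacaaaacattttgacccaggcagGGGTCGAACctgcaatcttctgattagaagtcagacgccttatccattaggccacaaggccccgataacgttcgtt
Relative to the summit, the word started at -12 bp at F54D5.7, -10 bp at ung-1, -19 bp at set-25 and 27 bp at ifet-1.

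The deposited signal value, a measure of enrichment over the control that carries no unit, had a median of 62.9 at weaker sites (quartiles 56.9 and 68.1, range 2.03 to 120), against a median of 105 at main peaks (range 2.37 to 1295). The score chose the sites, so these values describe them and were not tested. Only 12 weaker sites were above the lower quartile of the main peaks (83.3) and 2 were above their median, while 128 main peaks were below the median weaker site. All 1003 weaker sites were 290 bp wide. A group of 172 weaker sites overlapped another weaker site, leaving 915 merged regions. The 172 had a median signal of 33.4, against 64.0 at the 831 sites that stood alone. Of 88 sites with a signal below 30, 83 were among the overlapping ones.

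At the upper edge, the last sites inside the range were those at F54D5.7 (score 829, signal 65.0), ung-1 (score 829, signal 61.4) and an intron of supr-1 (score 828, signal 78.7). The first main peaks above it lay at sft-4 (score 830, signal 64.3), Y51A2D.21 (score 831, signal 74.2) and R148.3 (score 831, signal 69.1). At the lower edge, sites in introns of Y48G9A.11 and frl-1 and in a coding exon of grl-14 had a score of 540 and signals of 66.2, 64.3 and 62.2. Entries just below, near srv-15, his-70 and Y43C5B.3, had a score of 539 and signals of 59.6, 59.5 and 53.6. Signals overlapped across the upper edge, while at the lower edge the 3 entries inside were all above the 3 outside. Beyond these 3, signals overlapped there too. The lower quartile of all weaker sites (56.9) was below the signal of the entry near srv-15 (59.6).

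Each replicate also had a ranked list and a thresholded list of its own, and weaker sites were rarely in the thresholded ones. Of the 1003 weaker sites, 48 (4.79%) overlapped a thresholded peak of replicate 1 and 18 (1.79%) one of replicate 2. None overlapped both (upper limit 0.367% by the exact binomial interval, which covers the counting of sites only), and 937 (93.4%) overlapped neither. Among main peaks, 42.3% overlapped both and 25.1% neither. These lists came from the same reads as the pooled list that chose the sites, so the shares are a description with no test. The rule had also removed 152 entries that overlapped only a conservative peak, a list made by comparing the replicates. This favours a low count in both replicates, here and below.

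Weak entries under most of the sites were present in both replicates. Counting ranked entries of any score, 957 weaker sites (95.4%) overlapped one in replicate 1, 940 (93.7%) one in replicate 2 and 902 (89.9%) one in both, against 97.9% of main peaks in both. The ranked lists of any score covered 10.2% of the nuclear genome in replicate 1, with 10187643 bp, and 10035337 bp in replicate 2. Pooled entries of lower score that overlap no thresholded peak also met such entries often. At scores of 400 to 539, 91.5% did so in replicate 1 and 91.6% in replicate 2. At scores of 0 to 99, 48.7% and 47.4% did, so this overlap was not particular to the weaker sites. With a score of at least 540 required in the replicate as well, 169 weaker sites (16.8%) were found in replicate 1, 101 (10.1%) in replicate 2 and 3 in both. Those 3, named because of this count, were the site at pot-3 (scores 851 and 664), the intergenic site near F01G10.9 on IV (667 and 866) and a coding exon site on I whose nearest protein-coding 5' end was that of Y73E7A.8 (592 and 655).

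Over the 902 weaker sites found in both replicates, the signal had a median of 31.9 in replicate 1 (range 10.3 to 75.0) and 31.0 in replicate 2 (range 10.4 to 70.8). Main peaks found in both had medians of 58.2 in replicate 1 and 52.6 in replicate 2. The replicate signals of a weaker site added up to about its pooled signal, with a median ratio of 1.01 (quartiles 0.954 and 1.10), although the lists are not scaled to each other. Across the weaker sites the replicate signals ran in opposite directions (Spearman rho -0.581, n = 902 sites), whereas across main peaks they ran together (rho 0.649, n = 2365 peaks). Neighbouring sites can overlap the same replicate entries, so the 902 sites hold 832 distinct pairs of entries (rho -0.602) and the main peaks 2258 (rho 0.650). The sites were held to a narrow band of pooled score, which builds a negative relation into their choice, and both coefficients are a description across sites of the same libraries. Replicate 1 was the higher one at 475 of the 902 weaker sites (52.7%) and at 63.8% of main peaks.

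**Figure D1:**
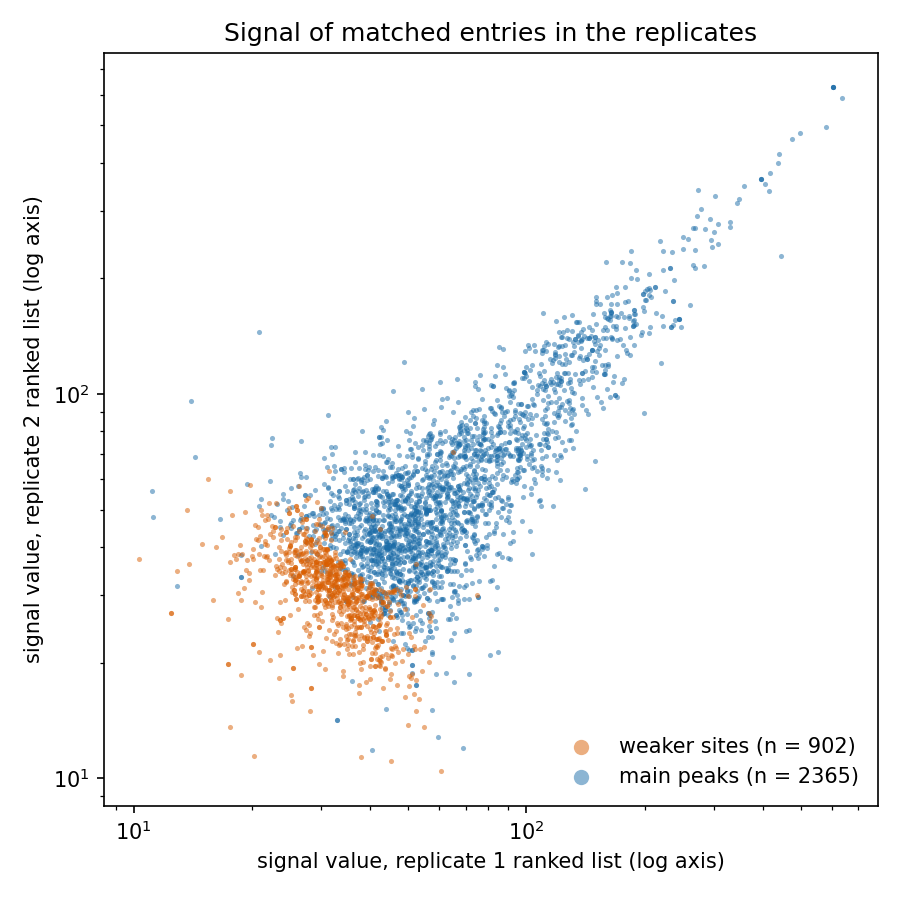
Deposited signal value of each site in the ranked list of replicate 1 (horizontal, log axis) and replicate 2 (vertical, log axis), with 902 weaker sites in orange and 2365 main peaks in blue. The weaker sites form a band that slopes down across the diagonal (rho -0.581), under the main peaks, which rise along it (rho 0.649).

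The conservative ranked list, which compares the replicates with each other, held an entry at 995 of the 1003 weaker sites. Their median score there was 503, and 444 sites (44.3%) reached 540 in it as well. In that list 6 sites were above the range.

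The strongest weaker site by signal lay at -60 bp from the 5' end of pot-3, a relative of the telomere-binding protein POT1, at chrIII:13780010-13780299. It had a pooled signal of 120, with 64.9 and 70.8 in replicates 1 and 2, and was the only weaker site that overlapped one of the 163 high-scoring entries that the authors' main list leaves out. The next, an intergenic site at chrI:10417114-10417403, had a pooled signal of 109 that was unequal between replicates, with 75.0 and 30.1 in replicates 1 and 2. An intergenic site at chrIV:10263014-10263303 had 101, with 31.5 and 62.9, and lay in the thresholded list of replicate 2. These 3 sites differ in which replicate was higher.

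The site at -379 bp from the 5' end of cki-1, a cyclin-dependent kinase inhibitor, had a signal of 88.3, with 46.1 and 30.5 in replicates 1 and 2. The promoter shared by cdk-8, the kinase of the Mediator complex, and tlf-1, a TBP-like factor, had 84.8, with 26.1 and 49.8 in replicates 1 and 2. At algn-3, a glycosylation enzyme gene, the summit was 24 bp inside the gene with a signal of 85.5, from 45.9 and 30.9, and the window held ATCGAT or ATTGAT. The promoter shared by hst-6, a heparan sulfate 6-O-sulfotransferase gene, and rga-8 had 83.4, from 26.3 and 57.8. Sites at F13C5.2 (87.9) and near H27A22.1 (87.3) had an entry in replicate 2 alone, with signals of 58.3 and 56.3. The other 3 of the 12 strongest were intergenic. For 1 of them (94.4, from 40.3 and 48.3) the nearest protein-coding 5' end was that of ZK380.2, 5820 bp away. For another (84.8, from 52.3 and 36.1) it was that of plg-1, 11564 bp away. The remaining one lay within 150 bp of a tRNA gene on III (84.2, from 46.6 and 31.0). Of these 12 sites, 2 held ATCGAT or ATTGAT within 50 bp of the summit, those at algn-3 and at hst-6 and rga-8.

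Summits of weaker sites lay less often in promoters and introns than those of main peaks, and more often in coding exons and intergenic DNA. A promoter here ran 1000 bp upstream to 200 bp downstream of the 5' end of a protein-coding transcript. It held 367 weaker sites (36.6%), against 43.2% of main peaks, a difference of -6.64 percentage points (95% interval -10.2 to -3.03, exact-test adjusted p = 5.86e-04). Coding exons held 145 weaker sites (14.5%), against 6.25% of main peaks, a difference of 8.20 points (5.91 to 10.7, exact-test adjusted p = 6.35e-13). Introns held 226 (22.5%), against 29.6%, a difference of -7.07 points (exact-test adjusted p = 4.99e-05), and intergenic DNA held 202 (20.1%), against 12.5%, a difference of 7.68 points (adjusted p = 7.77e-08). Each of these 4 differences had the same direction on 6 of 6 chromosomes.

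Noncoding genes outside these classes held 35 weaker sites (3.49%), against 5.38% of main peaks (exact-test adjusted p = 0.0251). The call was lost under the alternatives given in the next paragraph, and the difference turned round without sites at tRNA and snoRNA genes (0.264 points, exact-test adjusted p = 0.738), an alternative added after the values were seen. The 5' UTR held 5 weaker sites (0.499% against 0.166%) and the 3' UTR 23 (2.29% against 2.90%), differences that did not pass the test (exact-test adjusted p = 0.157 and 0.357). As background, promoters hold 26.1% of nuclear bases, coding exons 18.8%, introns 27.2% and intergenic DNA 21.6%, so the weaker sites were between main peaks and the genome for promoters, coding exons and intergenic DNA, and below both for introns. The p-values are from Fisher's exact test, two-sided, adjusted by Benjamini and Hochberg over 7 classes. They treat sites as independent and measure chance over sites, not the spread between replicates.

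Against only the 604 main peaks of lowest signal, the promoter difference was -3.97 points (exact-test adjusted p = 0.174) and the coding exon difference 3.86 points (adjusted p = 0.0617), so neither call held. The difference for noncoding genes was -1.97 points there (exact-test adjusted p = 0.127). That call was also lost against the conservative list (-1.50 points, exact-test adjusted p = 0.0799), with 1 entry for each merged region (-1.74, adjusted p = 0.0628), with a promoter reaching 2000 bp upstream (-1.27, adjusted p = 0.104), in the upper part of the score range (-1.47, adjusted p = 0.291) and at the sites that scored at least 540 in replicate 1 (-1.24, adjusted p = 0.688) or replicate 2 (-1.42, adjusted p = 0.956). The promoter call was also lost with a promoter reaching 2000 bp upstream (-3.56 points, exact-test adjusted p = 0.0837), in the upper part of the score range (-3.02 points, adjusted p = 0.291) and at the 169 sites that scored at least 540 in replicate 1 (-1.81 points, adjusted p = 0.688). The intron call was lost at the 101 sites that scored so in replicate 2 (-2.87 points, exact-test adjusted p = 0.811).

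**Figure D2:**
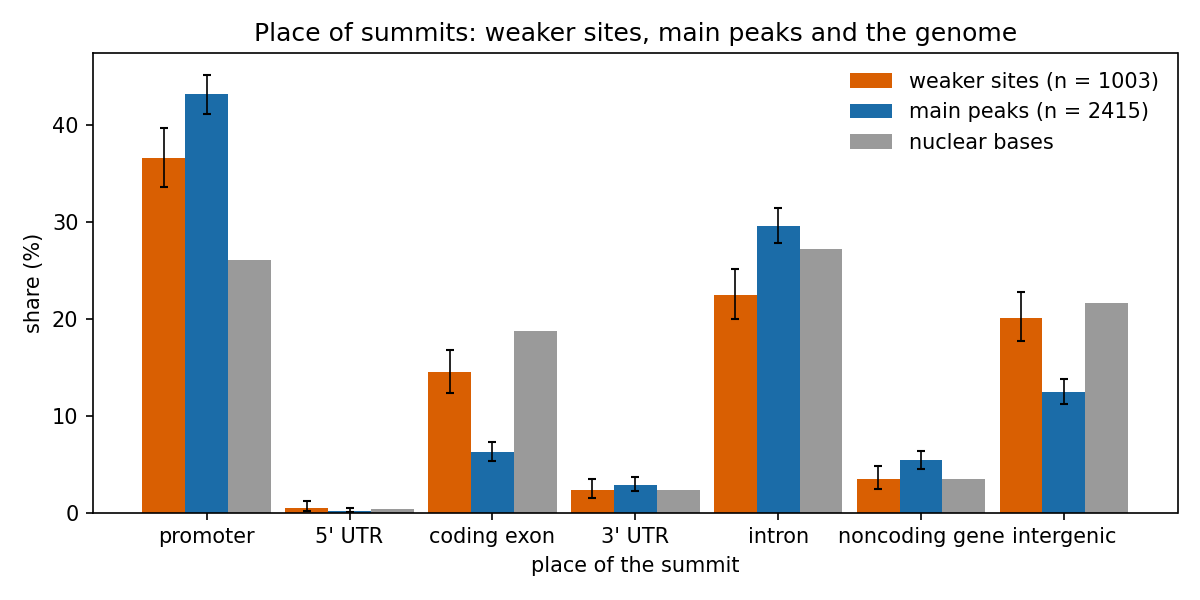
Share of summits (%) in each place, for 1003 weaker sites (orange) and 2415 main peaks (blue), with 95% exact binomial intervals that cover the counting of sites only, and the share of all nuclear bases (grey). Weaker sites are at 36.6% in promoters, between main peaks (43.2%) and the genome (26.1%), and at 14.5% in coding exons, between main peaks (6.25%) and the genome (18.8%).

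Distances to 5' ends overlapped widely between the lists and were not tested. The median distance to the nearest protein-coding 5' end was 1029 bp for weaker sites (quartiles 332 and 2505) and 817 bp for main peaks (quartiles 251 and 2346). Within 100 bp of one lay 103 weaker sites (10.3%), against 10.7% of main peaks, and within 500 bp 349 weaker sites (34.8%), against 39.7%. Of the 367 promoter sites, 283 were upstream of their nearest 5' end, 68 lay in the windows of at least 2 genes, and the median position was -165 bp.

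The bases around weaker summits had a GC share of 42.0% ± 10.5 (SD over 1003 sites), against 40.4% ± 12.1 at main peaks, and the flank of the weaker sites had 36.2%. Soft-masked bases, which are repeats and low-complexity sequence in the reference, made up 33.3% at weaker sites, against 41.4% at main peaks and 35.7% of the nuclear genome.

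Most weaker sites stood away from main peaks. The median gap to the nearest main peak was 13016 bp, 60 sites (5.98%) were within 500 bp and 109 (10.9%) within 1000 bp. Main peaks lay closer to one another, with a median gap of 4813 bp and 725 of the 2415 within 1000 bp of another. Of the named sites, the closest to a main peak were those at rps-1 and ifet-1 (154 bp), at the tRNA gene on III (169 bp) and at gei-4 (302 bp).

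tRNA genes were much less frequent at the weaker sites than at main peaks. A summit within 150 bp of a tRNA gene was found for 13 weaker sites (1.30%), against 213 main peaks (8.82%), a difference of -7.52 percentage points (-8.84 to -6.12, Fisher's exact test, adjusted over 6 types, p = 6.81e-19). The share of the nuclear genome within that distance is 0.219%. Of 612 annotated tRNA genes, 13 (2.12%) had a weaker site and 223 (36.4%) a main peak. Over all 46890 annotated genes, which differ in length from tRNA genes, 1.60% had a weaker site within 150 bp and 4.15% a main peak. The share of tRNA genes with a weaker site was thus near its background, while the share with a main peak was above its own. By sequence covered, the 1.30% of weaker sites was above the 0.219% of the genome.

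The 13 sites at tRNA genes had signals of 49.6 to 84.2 with a median of 64.4. X carried 6 of them, chromosomes II and III 3 each, IV 1 and chromosomes I and V none. X also holds 276 of the 612 tRNA genes and 98 of the 213 main peaks at them. The site in the sur-7 intron had a signal of 83.2, with 56.8 and 31.1 in replicates 1 and 2. The site in the unc-7 intron had 73.8, with 32.7 and 37.5 in replicates 1 and 2, so the replicates differed more at sur-7. An intergenic site near C40C9.4 on X had 70.6, with 43.9 and 25.1. The B-box pattern GTTCNANNC was within 50 bp of the summit at 9 of the 13 weaker sites, against 148 of the 213 main peaks at tRNA genes (69.5%). ATCGAT or ATTGAT was present at 3 of the 13, against 10 of the 213 (4.69%).

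Genes for snoRNAs, which guide chemical modification of ribosomal and other RNAs, showed the same direction. A snoRNA gene was within 150 bp at 5 weaker sites (0.499%), against 58 main peaks (2.40%, difference -1.90 points, adjusted p = 1.23e-04 by Fisher's exact test). The share of the nuclear genome within that distance is 0.149%, below both. Of 346 annotated snoRNA genes, 5 (1.45%) had a weaker site, near the 1.60% over all annotated genes. A main peak was found at 57 snoRNA genes (16.5%), beside 4.15% of all genes. Chromosome I held 4 of the 5 weaker sites and IV the other. The strongest lay in an intron of rpn-8, a proteasome subunit gene, with a signal of 71.5, from 35.0 and 32.5 in replicates 1 and 2. The site at the promoter of pcyt-2.1 had 63.1, from 50.4 and 18.5, and was in the thresholded list of replicate 1 alone. Sites at T23G11.11 and Y95B8A.4 had 54.8 and 54.4.

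Other noncoding RNA genes, annotated as ncRNA or lincRNA, were near 70 weaker sites (6.98%), against 304 main peaks (12.6%, difference -5.61 points, adjusted p = 2.89e-06 by Fisher's exact test). The share of the nuclear genome within 150 bp of one is 3.20%, below both. By gene, 83 of 7958 (1.04%) had a weaker site, beside 1.60% of all annotated genes. The spliced leader gene sls-2.10 was the 1 snRNA gene with a weaker site, with a signal of 57.4 and an entry in replicate 2 alone. The 1 miRNA gene was mir-238, with a signal of 70.1, from 35.2 and 29.6 in replicates 1 and 2. piRNA genes were near 4 weaker sites (0.399%), although 2.84% of the nuclear genome lies within 150 bp of one. Differences in the shares at snRNA, miRNA and piRNA genes did not pass the test (exact-test adjusted p = 0.358, 0.288 and 0.612), at counts of 1, 1 and 4 weaker sites, against 9, 10 and 14 main peaks. Against the 604 main peaks of lowest signal the calls for tRNA (-2.02 points, exact-test adjusted p = 0.0589), snoRNA (-0.660 points, adjusted p = 0.176) and other noncoding genes (-2.79 points, adjusted p = 0.139) were all lost. At the sites that scored at least 540 in replicate 1 or 2, the snoRNA call (exact-test adjusted p = 0.538 and 0.513) and the call for other noncoding genes (adjusted p = 0.554 and 0.532) were lost too. The snoRNA call was also lost in the upper part of the score range (-1.62 points, exact-test adjusted p = 0.0778).

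The word ATCGAT or ATTGAT, read on both strands, was common at weaker sites and less common there than at main peaks. It lay within 50 bp of the summit at 400 weaker sites (39.9%), against 1601 main peaks (66.3%), a difference of -26.4 points (-29.9 to -22.8, Fisher's exact test, adjusted over 5 words, p = 4.26e-45), in the same direction on 6 of 6 chromosomes. Of 992797 windows of the same 101 bp over the nuclear genome, 13.2% held it. The word was taken from earlier results on the main peaks, so the main share is not independent of that choice. Against the 604 main peaks of lowest signal the difference was -19.2 points (exact-test adjusted p = 4.49e-13).

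Within the weaker sites the word was centred on the summit. It was present at the summit in 39.9% of sites, against 16.5% in the window 300 to 400 bp to the lower-coordinate side, a difference of 23.4 points (325 sites with the word at the summit alone, against 90 in the flank alone, exact McNemar test, two-sided, adjusted p = 1.36e-31). The flank on the other side held it in 13.8%. In bins of 20 bp the share peaked at 12.6% just after the summit, against 29.2% at the highest bin of main peaks, and stayed between 2.79% and 5.08% beyond 300 bp at weaker sites. A single copy was found at 299 weaker sites, 2 copies at 86 and 3 or more at 15 (1.50%), against 414 main peaks with 3 or more (17.1%).

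**Figure D3:**
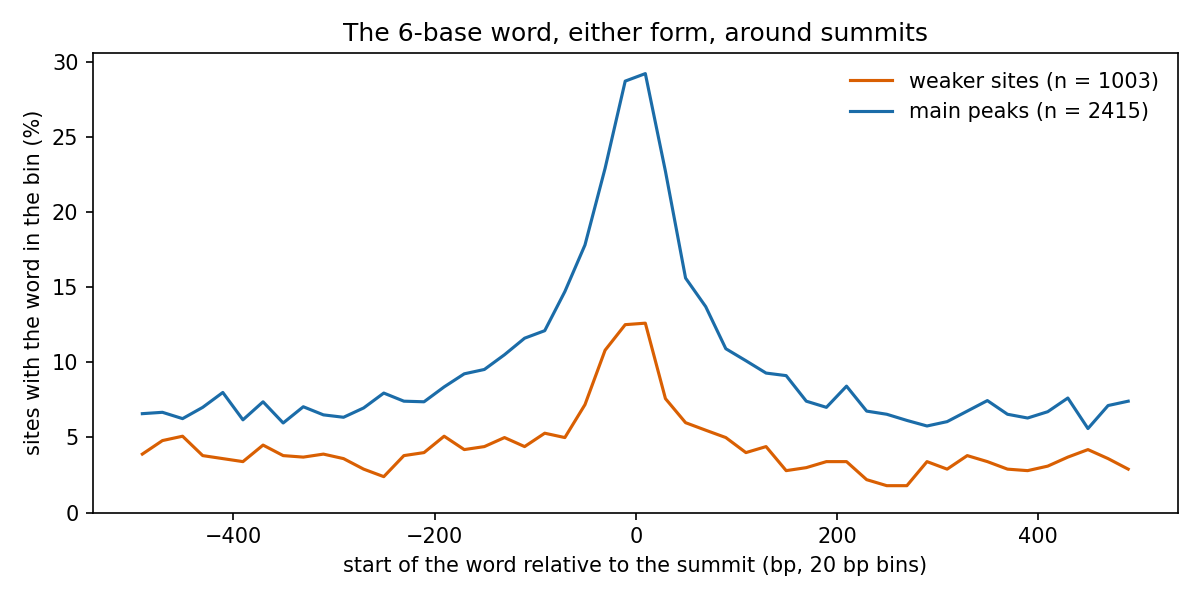
Share of sites (%) with ATCGAT or ATTGAT, either strand, starting in each 20 bp bin from 500 bp before to 500 bp after the summit, for 1003 weaker sites (orange) and 2415 main peaks (blue). Both lines are highest at the summit, at 12.6% for weaker sites and 29.2% for main peaks.

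The form ATCGAT was at 23.1% of weaker sites, against 5.78% in their flank and 50.4% of main peaks. ATTGAT was at 22.4% of weaker sites, against 11.8% in their flank and 34.3% of main peaks. Promoter sites held either form in 45.5% of cases, intronic sites in 43.8%, coding exon sites in 34.5% and intergenic sites in 31.2%, against 63.9%, 73.0%, 72.2% and 64.1% of main peaks in those places. X had the lowest share in both lists, with 29.1% of weaker sites and 47.3% of main peaks, and chromosome I the highest, with 46.6% and 74.6%. At tRNA genes lay 98 of the 334 main peaks and 6 of the 141 weaker sites on X. Over all chromosomes, 4.69% of the main peaks at tRNA genes held the word. The part of tRNA genes in the X shares was not tested. Median signals were 63.5 for weaker sites with the word and 62.4 for those without it, and 34 of the 400 with it (8.50%), against 32 of the 603 without it (5.31%), were in a replicate's thresholded list.

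The B-box pattern GTTCNANNC was at 40 weaker sites (3.99%), against 9.48% of main peaks (-5.49 points, adjusted p = 2.93e-08 by Fisher's exact test) and 3.53% of genome windows. Against the 604 main peaks of lowest signal (4.30%) the difference was -0.317 points and the call was lost (exact-test adjusted p = 0.796). It was also lost at the sites that scored at least 540 in replicate 1 (-4.16 points, exact-test adjusted p = 0.184) or replicate 2 (-6.51 points, adjusted p = 0.0543). Its share in the flank of the weaker sites was 3.59%, a difference that did not pass the test (exact McNemar test, adjusted p = 0.724). The Fisher's exact test difference from the main peaks turned to 0.340 points (adjusted p = 0.642) when sites at tRNA and snoRNA genes were left out of both lists, an alternative added after the values were seen. TATAAA, the core of the TATA box, was at 43 weaker sites (4.29%) and less frequent than in their flank (10.4%, adjusted p = 4.69e-07 by exact McNemar test), while the difference of its share from that of main peaks did not pass the test (5.13%, adjusted p = 0.338). Genome windows held it in 11.2%. The call against the flank was lost at the 169 sites that scored at least 540 in replicate 1 (-5.92 points, exact-test adjusted p = 0.0772) and the 101 in replicate 2 (-3.96 points, adjusted p = 0.625). GAGAG was at 193 weaker sites (19.2%), against 22.3% of main peaks (exact-test adjusted p = 0.0817) and 16.3% of the flank (adjusted p = 0.138), with 12.5% over the genome windows. GAGAG did pass against the flank on the other side (12.2%, 7.08 points, exact McNemar test, adjusted p = 2.19e-05), and against main peaks in a window of 25 bp either side (9.57% against 12.5%, -2.93 points, Fisher's exact test, adjusted p = 0.0271). CACGTG, the core of the E box, was at 18 sites (1.79%), against 2.44% of main peaks (exact-test adjusted p = 0.338) and 1.67% of genome windows.

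Of all 2080 words of 6 bases, counted with their reverse complements, 79 (3.80%) were more frequent at weaker summits than in the flank and 72 less frequent (exact McNemar test, adjusted p under 0.05), against 396 more frequent at main summits. The main list has 2415 peaks and the weaker list 1003 sites, so smaller differences can pass in the main list. The counts of words are therefore not a measure of how the lists differ in sequence. At weaker summits ATCGAT ranked at the top, followed by AATCGA (27.2% against 11.2% in the flank), TATCGA (19.5% against 6.78%) and CGATAA (16.1% against 5.08%), which overlap it. A GC-rich pair was also among the 10 leading words, CGCCGC (6.48% against 1.50%, exact-test adjusted p = 1.31e-06) and CCGCCG (6.18% against 1.69%, adjusted p = 7.78e-06). Words of A and T such as AAAATT were less frequent at the summit (32.4% against 46.5%, exact-test adjusted p = 2.53e-08). This scan was added after the values of the chosen words were seen, and the GC share of the summits (42.0%) was above that of the flank (36.2%), whose part in these counts was not tested.

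Down the whole ranking, the weaker sites lay between their neighbouring bands in promoter, coding exon and word shares, but not in tRNA, snoRNA, intron or intergenic shares. In bands of score 0 to 99, 100 to 249, 250 to 399, 400 to 539, 540 to 829 and the main list, the promoter share was 26.3%, 27.9%, 31.1%, 33.1%, 36.6% and 43.2%. The word share in the same order was 16.0%, 19.1%, 25.5%, 32.6%, 39.9% and 66.3%, with each step up in score giving a higher share. The coding exon share, given here for the bands of 100 and above, was 21.8%, 18.7%, 19.4%, 14.5% and 6.25%, lowest in the main list. The tRNA share was 0.226%, 0.366%, 0.967%, 2.02%, 1.30% and 8.82%, so most of its rise lay above the weaker sites. The intergenic share was 17.5%, 17.3%, 17.3%, 14.8%, 20.1% and 12.5%, highest at the weaker sites. The intron share was 28.3%, 27.7%, 27.0%, 26.4%, 22.5% and 29.6%, lowest at the weaker sites. The snoRNA share was 0.195%, 0.227%, 0.462%, 0.865%, 0.499% and 2.40%. The score made these bands, which hold 38528, 10112, 2379, 1041, 1003 and 2415 entries. Every band below the main list leaves out entries that overlap a thresholded peak. In the range of the weaker sites these were 158 of 1161 entries. What this removal did to the shares, here and in the comparison below, was not tested.

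**Figure D4:**
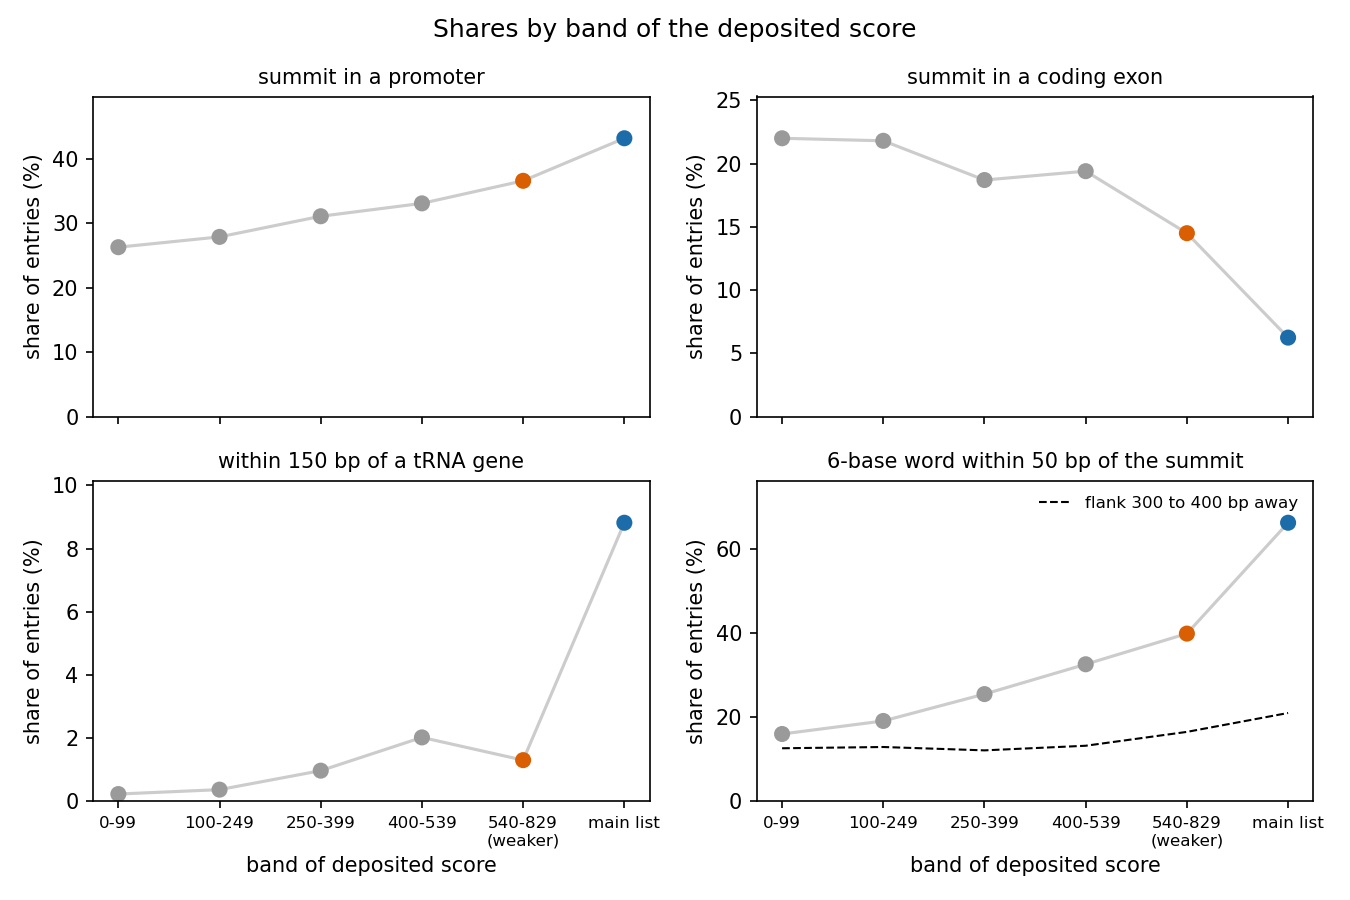
Share of entries (%) with the summit in a promoter, in a coding exon, within 150 bp of a tRNA gene, or with ATCGAT or ATTGAT within 50 bp, by band of deposited score from low to high, with the weaker sites in orange and the main list in blue. The dashed line is the word share 300 to 400 bp away. The word share is 39.9% at the weaker sites and 66.3% in the main list, and the tRNA share 1.30% and 8.82%.

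A comparison with the 1040 entries of score 400 to 539 that overlap no weaker site was added after the values were seen. Weaker sites held the word more often (39.9% against 32.5%, difference 7.38 points, 3.21 to 11.5, Fisher's exact test, adjusted p = 0.00275). They lay less often in coding exons (14.5% against 19.4%, -4.97 points, exact-test adjusted p = 0.0111) and more often in intergenic DNA (20.1% against 14.8%, 5.33 points, adjusted p = 0.0111). Promoter shares (36.6% against 33.1%, difference 3.51 points, -0.617 to 7.63, exact-test adjusted p = 0.182) and tRNA shares (1.30% against 2.02%, -0.723 points, -1.90 to 0.421, adjusted p = 0.879) did not pass the test. Within the weaker sites, with the range cut into 4 groups of about 251 sites by score, the word share from low to high was 35.1%, 39.0%, 41.2% and 44.2%. Cut by signal in the same way, it was 29.1%, 46.6%, 36.8% and 47.0%, with no steady rise.

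No chromosome held a share of the weaker sites that differed from its share of main peaks by the test. Chromosome I held 206 weaker sites (20.5%), against 23.3% of main peaks, chromosome II 158 (15.8% against 13.5%) and chromosome III 196 (19.5% against 21.2%). Chromosomes IV and V held 151 each (15.1%), against 14.7% and 13.5%, and X 141 (14.1% against 13.8%). Adjusted p-values ran from 0.221 to 0.871 (Fisher's exact test, over 7 comparisons). The intervals of the differences reached -5.68 points for chromosome I and 4.97 points for chromosome II. Per Mb, weaker sites were densest on III (14.2) and I (13.7) and sparsest on V (7.22), against 37.1, 37.3 and 15.6 main peaks.

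The central stretch of each autosome, taken as the middle 33.3% of its length, is in C. elegans part of the gene-dense, rarely recombining centre. It held 188 of 862 autosomal weaker sites (21.8%), against 395 of 2081 main peaks (19.0%). The difference of 2.83 points (-0.324 to 6.14) did not pass the test (exact-test adjusted p = 0.221). It was 5.07 points (exact-test adjusted p = 0.0121) when sites at tRNA and snoRNA genes were left out of both lists, an alternative added after the values were seen.

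**Figure D5:**
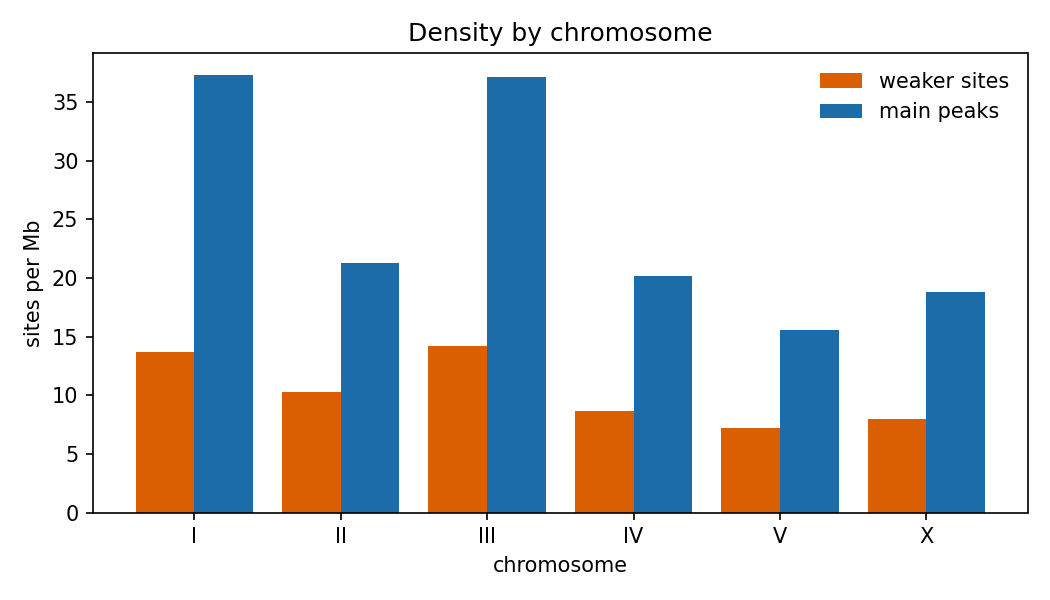
Weaker sites (orange) and main peaks (blue) per Mb of each nuclear chromosome. Both are densest on I (13.7 weaker sites and 37.3 main peaks) and III (14.2 and 37.1) and sparsest on V (7.22 and 15.6).

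Of 19973 protein-coding genes, 392 (1.96%) had a weaker summit in the promoter window and 1212 (6.07%) a main summit. Both were found at 38 genes, which is 9.69% of the genes with a weaker site, beside 6.07% of all genes with a main summit, and 3.14% of the genes with a main summit, beside 1.96% of all genes with a weaker site. The overlap was not tested. No weaker site lay in the promoter or body of T22C8.4 or unc-119, the genes on the transgene.

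Counts in gene groups were small and are set beside the 1.96% of all protein-coding genes. Among 81 ribosomal protein genes, 2 (2.47%) had a weaker site, against 27 (33.3%) with a main summit. The site at rpl-41.1 had a signal of 69.5, from 45.4 and 21.7 in replicates 1 and 2, and that at rps-1 had 45.4, from 43.1 and 17.2. Histone genes had 5 of 72 (6.94%), against 10 (13.9%), from 3 sites, since his-5 and his-6 share 1 site (62.7, from 31.1 and 36.9) and his-63 and his-64 another (51.3, from 36.5 and 25.2). The remaining one lay in the promoter of his-47, with the 5' end of his-58 nearest, and had 66.9, from 34.4 and 31.6. Of the chromatin genes, 4 of 60 (6.67%) had a weaker site, against 19 (31.7%). These were set-25 (67.3, from 50.9 and 23.4), lin-53, a histone-binding subunit (65.6, from 41.5 and 30.1), gei-4 (63.0, from 46.0 and 23.8) and lin-9, a member of the DREAM complex, named only to complete the count. The set-25 site was in the thresholded list of replicate 1. The lin-53 site lay in a promoter shared with nra-2, whose 5' end was nearest.

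Genes of other housekeeping groups had 1 or 2 weaker sites each. Splicing genes had 2 of 48 (4.17%, against 12 of 48 with a main summit), at prp-40 (70.4, from 32.2 and 37.1) and rnp-1 (69.9, with 41.6 in replicate 1 and a lower value in replicate 2). Translation factors and tRNA synthetases had 1 of 66 (1.52%, against 13.6%), eif-2gamma (68.0, from 27.0 and 36.1), which shares its promoter with tbca-1. Respiratory chain genes had 1 of 71 (1.41%, against 25.4%), ndua-1 (55.7, from 35.9 and 30.5), a complex I subunit gene. The weaker shares of these 3 groups lay between 1.41% and 4.17%, beside 1.96% over all protein-coding genes. Their main shares lay between 13.6% and 25.4%, beside 6.07%. The groups were chosen with earlier results of these data known, so their main shares are not independent of that choice.

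Tissue-specific families had between 1 and 4 genes with a weaker site. Neuronal and synaptic genes had 2 of 44 (4.55%, against 15.9%), unc-116, the kinesin-1 heavy chain gene (70.6, from 36.3 and 32.1), and ric-8, a regulator of G proteins (68.3, from 28.8 and 33.7). Homeobox genes of the ceh class had 2 of 63 (3.17%, against 4.76%), ceh-86 (79.5, from 44.5 and 30.5) and ceh-88 (64.1, in replicate 1 alone with 37.0). Nuclear hormone receptor genes had 2 of 269 (0.743%, against 3.35%), nhr-142 (65.5, in replicate 1 alone with 47.2) and nhr-46 (45.4, from 23.1 and 26.2). The nhr-142 site lay in a promoter shared with F44E7.9, whose 5' end was nearest. Collagen genes had 1 of 156 (0.641%, against 3.21%), col-111, with a pair of overlapping sites of signal 29.1 and 23.1. The 5' end nearest to the weaker of the pair was that of mrps-21. C-type lectin genes had 2 of 240 (0.833%, against 1.25%), clec-163 (60.6, in replicate 2 alone with 36.5) and clec-107 (52.7, from 42.4 and 20.7). Chemoreceptor genes had 4 of 1309 (0.306%, against 0.611%), among them srbc-38 (73.5, from 26.1 and 42.6), srh-16 (72.0, from 37.9 and 31.2) and srh-76 (57.6, in replicate 2 alone with 50.2). In each of the 12 groups the weaker share was below the main share, as it was over all genes.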

How the data were processed

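Chromatin immunoprecipitation peak lists of 2 replicates were used. The authors deposited ranked and thresholded lists per replicate and on both together, on ce11 per the labels; the aligner and peak caller are not given in the sources read. The deposited score is the authors' own function of IDR, with a ceiling of 1000. Signal values were deposited as the peak caller's enrichment over a control; they carry no unit, and lists were not brought to a common scale. The -log10 of the global IDR was deposited too and was used as given. Depth is unknown, so intervals cover the counting of sites only.

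Summits were placed with Ensembl release 115 (WBcel235, the same assembly as ce11), with promoters taking precedence, then exons by kind (5' UTR, coding, 3' UTR), introns and noncoding genes. Words were sought within 50 bp of summits and 300 to 400 bp away, the lower-coordinate side being the one tested. Shares were compared with Fisher's exact test and, within sites, an exact McNemar test, with Benjamini-Hochberg adjustment and a threshold of 0.05. Intervals of shares are 95% Clopper-Pearson. Python 3.11.15, numpy 2.4.6, scipy 1.17.1, pandas 2.3.3 and matplotlib 3.10.9 were used, and the tests were checked on simulated data.

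Named sites were the 12 of highest signal, up to 4 of each of 4 noncoding types, up to 3 promoter sites of each gene list, and the 3 at either end of the score range, with any site at T22C8.4 or unc-119 or in both replicates' thresholded lists. The members, lists and words were chosen with earlier results of these data known. The signal of overlapping sites was taken as deposited.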

Additional observations from a re-analysis of the deposited data

How the results depend on the processing

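Of 321 alternative values, 289 kept their side of the threshold. Calls among the 289 kept their direction, while values that did not pass the test could change sign. For the 12 leading results, 111 of 132 values kept their side, and for the others, many of which never passed, 178 of 189. The leading results were promoters, coding exons, introns, intergenic DNA, tRNA, snoRNA and other noncoding genes, autosome centres and the word tests that passed. Differences are in percentage points, weaker sites minus main peaks. Against the 604 main peaks of lowest signal, calls were lost for promoters (-3.97), coding exons (3.86), the noncoding gene class (-1.97), tRNA (-2.02), snoRNA (-0.660) and other noncoding genes (-2.79) and GTTCNANNC (-0.317). In the upper part of the score range they were lost for promoters (-3.02), the noncoding gene class (-1.47) and snoRNA genes (-1.62), and with a promoter of 2000 bp for promoters (-3.56) and the noncoding gene class (-1.27), which was lost also against the conservative list (-1.50) and over merged regions (-1.74). Sites that scored at least 540 in 1 replicate numbered 169 or 101. They were still chosen by the pooled score and set against all main peaks, so the other replicate was not left out. The call was lost in 1 of these subsets for promoters (-13.5 to -1.81) and introns (-9.49 to -2.87). It was lost in both for the noncoding gene class (-1.42 to -1.24), snoRNA (-2.40 to -1.81) and other noncoding genes (-3.68 to -3.12), GTTCNANNC (-6.51 to -4.16), and TATAAA against the flank (-5.92 to -3.96). Calls were gained for GAGAG against the other flank (7.08) and in a 25 bp window (-2.93), and for the 5' UTR with a promoter of 2000 bp (0.357). Without tRNA and snoRNA sites (chosen after seeing the data), GTTCNANNC (0.340) and the noncoding gene class (0.264) reversed and the autosome centres gained a call (5.07). Fewer sites enter the smaller subsets; the cause of the other changes was not tested. Depth cannot be read from peak lists. No paired analysis was possible because the replicates form 1 group.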
